A study of Homo sapiens with 8 samples.

Results

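The nuclear genes of the respiratory chain were followed in ZR-75-1, an established human line from an estrogen receptor positive breast cancer. They were taken by name and position: protein-coding entries outside the mitochondrial chromosome whose symbol starts with NDUF, SDH, UQCR, COX or ATP5, without pseudogene names. This gave 110 entries for 106 gene symbols among the 57773 genes of the table. Of the 110, 86 were subunits of complexes I to V, 18 were assembly factors, which help to build a complex without staying in it, and 6 were readthrough or other genes whose names fit. NDUFA7, NDUFB8, SDHD and UQCR11 had 2 entries each.

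The cells had 72 h without steroids, in medium free of phenol red with charcoal-stripped serum, and then 4 h of hormone. One arm received 10 nM dihydrotestosterone (DHT), a potent androgen, on top of 10 nM estradiol (E2), and is called E2+DHT; the other received 10 nM E2 only. Each arm had 4 libraries of total RNA, and both arms carried E2, so the comparison is of an added androgen in estrogen-treated cells, with no arm free of hormone. The model is 1 cell line at 1 time point, so cells of a tumor other than the epithelial ones are not part of it.

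The respiratory chain moves electrons from NADH and succinate to oxygen in the inner mitochondrial membrane. Complexes I, III and IV pump protons as the electrons pass, complex II feeds in electrons from the citrate cycle, and complex V, the ATP synthase, uses the proton gradient to make ATP. Most subunits are encoded in the nucleus and imported, while a small core of complexes I, III, IV and V is encoded in mitochondrial DNA, and every subunit of complex II is nuclear. Transcription factors such as NRF1, GABP (an ETS factor), YY1 and SP1 are known for binding near the starts of these genes.

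Promoters of 4 subunit genes are shown because they carry the letters associated with those factors, and because NDUFA3 had the most positive fold change of the subunits, COX6B1 was the most abundant of complex IV, and SDHB and SDHD stand for complex II, which is nuclear throughout. Each sequence runs 5′ to 3′ on the gene's own strand and covers 250 bases before the annotated start and 50 bases after it, from RefSeq on GRCh38.p14. Capitals mark a match to GCGCATGCG (NRF1), CCGGAAG (ETS; CTTCCGG where it lies on the other strand) or AAGATGGC (YY1). NDUFA3 lies at chr19:54102605-54102904 on the plus strand, SDHB at chr1:17053983-17054282 on the minus strand, SDHD at chr11:112086623-112086922 on the plus strand and COX6B1 at chr19:35648073-35648372 on the plus strand.
NDUFA3: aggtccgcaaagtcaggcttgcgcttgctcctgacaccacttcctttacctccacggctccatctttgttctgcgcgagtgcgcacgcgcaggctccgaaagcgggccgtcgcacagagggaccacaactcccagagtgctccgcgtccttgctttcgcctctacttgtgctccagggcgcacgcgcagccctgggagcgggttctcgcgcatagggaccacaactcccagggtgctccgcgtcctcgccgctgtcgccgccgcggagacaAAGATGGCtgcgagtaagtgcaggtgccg
SDHB: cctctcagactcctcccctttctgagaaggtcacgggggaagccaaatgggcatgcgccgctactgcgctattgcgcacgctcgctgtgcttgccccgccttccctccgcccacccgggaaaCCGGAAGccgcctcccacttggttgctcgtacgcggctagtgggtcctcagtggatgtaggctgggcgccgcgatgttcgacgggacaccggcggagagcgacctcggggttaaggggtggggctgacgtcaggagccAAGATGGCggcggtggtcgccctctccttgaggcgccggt
SDHD: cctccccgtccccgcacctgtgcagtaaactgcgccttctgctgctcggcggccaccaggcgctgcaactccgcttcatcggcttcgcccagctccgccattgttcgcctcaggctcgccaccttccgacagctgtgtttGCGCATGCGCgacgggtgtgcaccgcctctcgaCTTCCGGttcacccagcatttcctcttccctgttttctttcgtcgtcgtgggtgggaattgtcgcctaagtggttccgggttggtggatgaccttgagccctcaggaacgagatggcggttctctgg
COX6B1: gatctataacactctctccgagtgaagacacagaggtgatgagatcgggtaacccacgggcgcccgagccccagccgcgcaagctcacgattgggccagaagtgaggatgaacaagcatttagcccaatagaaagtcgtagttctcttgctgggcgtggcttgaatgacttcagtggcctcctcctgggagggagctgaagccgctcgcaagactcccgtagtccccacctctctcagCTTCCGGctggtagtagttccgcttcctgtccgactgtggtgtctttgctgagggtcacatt

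RefSeq promoters were found for 66 of the 86 subunit entries and 16 of the 18 assembly factor entries, which came to 78 and 23 windows because some genes have several starts. On either strand, CCGGAAG stood in 26.9% of the subunit windows (21 of 78) and 10.3% of all 35116 windows of the same length. It stood in 30.4% of the assembly factor windows (7 of 23). AAGATGGC stood in 16.7% of the subunit windows (13 of 78), 4.35% of the assembly factor windows (1 of 23) and 2.89% of all windows. GCGCATGCG stood in 14.1% of the subunit windows (11 of 78), 17.4% of the assembly factor windows (4 of 23) and 1.92% of all windows. The longer NRF1 palindrome of 10 letters, which was searched first and replaced after its counts were seen, gave 5.13% (4 of 78), 17.4% (4 of 23) and 1.24%, so the share of subunit windows depends on 1 letter. GGGGCGGGG, the letters of SP1, stood in 14.1% of the subunit windows, 26.1% of the assembly factor windows (6 of 23) and 15.7% of all windows. Against the 12885 windows of genes tested here, the shares for CCGGAAG, AAGATGGC, GCGCATGCG and GGGGCGGGG were 18.1%, 5.12%, 3.34% and 25.8%. The palindromic androgen response element, AGAACA and TGTTCT with 3 bases between them, was in none of the subunit or assembly factor windows, and in 1 of all 35116. These matches describe letters in short windows; in the SDHD promoter GCGCATGCG matches on both strands and the 2 matches overlap, and no other matches overlap in the 4 promoters shown; whether a factor was bound was not measured.

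The values are RPKM, read numbers relative to exon length and library size, as the authors deposited them. The reads behind this scaling were inferred from the smallest product of RPKM and gene span in each library, taken as 1 read. They came to 19599217 to 34616639 in E2+DHT and 19955045 to 31913885 in E2, and the shares of reads in exons rest on them. Groups were taken from the library names, because in 4 of the 8 records the title names the other treatment. By the library names the E2+DHT records give passages 9 and 11 and the E2 records passages 8 and 10. In that grouping passage and treatment cannot be told apart. The passage follows the replicate number of the title, and by the titles each treatment has passages 8, 9, 10 and 11. Grouped by the library names, all 7 listed androgen-induced genes passed limma's test as higher in E2+DHT, beside 0.176% of all tested genes. The list was chosen with earlier results of these data known, so its pass is not an independent check of the grouping. FKBP5, a chaperone cofactor of steroid receptors, had 2.55, 2.19, 1.91 and 2.15 RPKM in E2+DHT and 0.652, 0.813, 0.835 and 0.841 RPKM in E2. E2 replicates 2 and 4 had the lowest shares of reads in exons, 78.3% and 80.0%, against 83.0% to 84.8% in the other 6 libraries. All 9 listed luminal markers reached 0.5 RPKM and 0 passed limma's test; ESR1, the estrogen receptor, averaged 5.52 ± 0.525 RPKM in E2+DHT and 6.82 ± 0.792 RPKM in E2 (SD, n = 4 each; limma unadjusted p = 0.0145, adjusted p = 0.761), and its arms overlapped. Of the markers of other cell types, 0 of 6 immune, 0 of 3 measured endothelial, 1 of 7 fibroblast (COL1A1 at 0.800 RPKM) and 1 of 6 muscle markers (TNNT1 at 24.0 RPKM) reached 0.5 RPKM, and the muscle myosins MYH7 and MYH2 were at 0. The labels do not say whether replicates were separate cultures, so the p-values measure the spread between these libraries.

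The subunits were abundant and the assembly factors were not. The 73 subunits with a mean of at least 0.5 RPKM had a median of 24.0 RPKM, the 17 assembly factors 4.40 RPKM and all 11375 genes at that level 4.13 RPKM. Some related lists were high as well, with medians of 24.5 RPKM for 5 further ATP synthase genes and 19.1 RPKM for 5 electron carriers. The median was 13.1 RPKM for 19 genes of the citrate cycle and 314 RPKM for the 13 subunits encoded in mitochondrial DNA. Other lists were nearer to all genes, with 3.35 RPKM for coenzyme Q synthesis, 4.53 for further complex III genes and 5.22 for biogenesis regulators. Further assembly factors had medians of 6.61 RPKM in complex I and 8.77 RPKM in complex IV. By complex, the median of the tested subunits was 17.0 RPKM in complex I, 13.1 in complex II, 49.1 in complex III, 52.0 in complex IV and 27.7 in complex V. The highest of all was ATP5A1, the alpha subunit of the ATP synthase, at a mean of 162 RPKM over the 8 libraries, followed by its catalytic partner ATP5B at 153 RPKM and COX6B1 at 131 RPKM. ATP5A1 and ATP5B did not differ beyond their spread, with 134 to 176 RPKM over the libraries for ATP5B and 142 to 183 RPKM for ATP5A1.

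**Figure D1:**
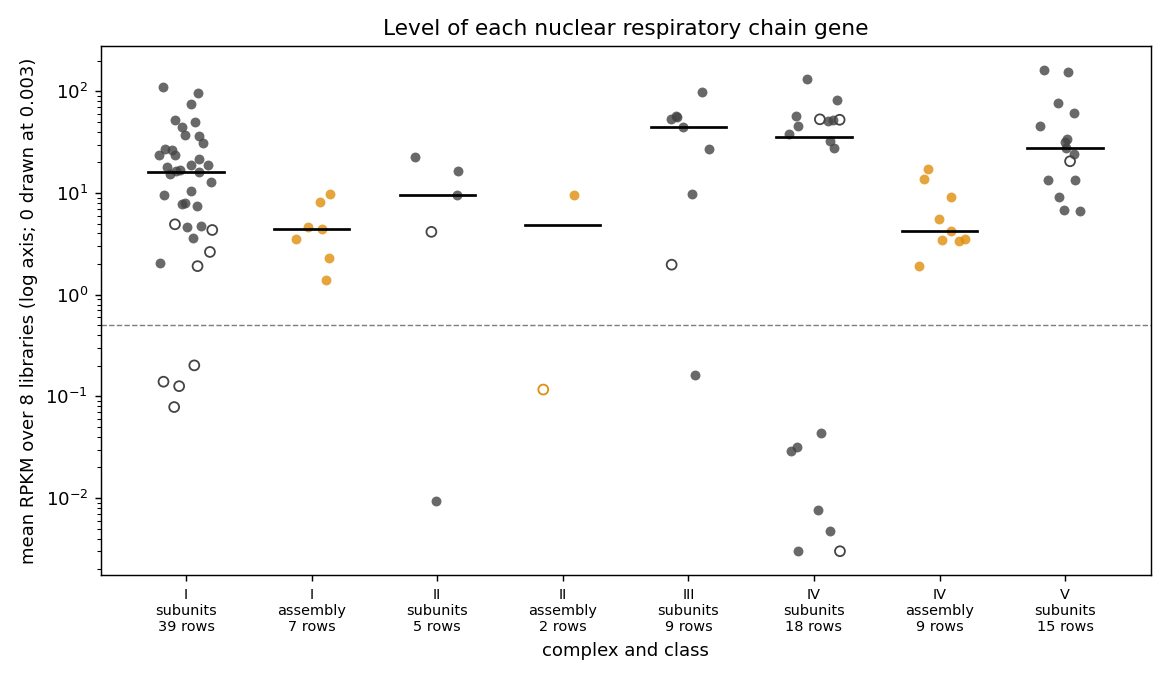
Mean RPKM over the 8 libraries (log axis, values under 0.003 drawn at 0.003) of each subunit (grey) and assembly factor (orange) by complex, with the median of each class as a bar, the filter of 0.5 RPKM as a dashed line and open circles for entries with at least 90% of their span under another coding gene on the same strand. The cloud of complex IV entries near the bottom of the plot holds the tissue-restricted forms.

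Many of the low entries lay under other gene models. Among the subunits, 14 entries had at least 90% of their span under another coding gene on the same strand, with a median of 2.30 RPKM, against 26.9 RPKM for the 65 entries with none. NDUFA7 (0.126 and 0.139 RPKM for its 2 entries) and NDUFB8 (0.0785 and 0.202 RPKM) were among the 14 and below 0.5 RPKM, as was COX8C, described with the tissue-restricted forms. SDHAF2, an assembly factor of complex II, lay wholly under another model too, at 0.117 RPKM. The other, untested entries of SDHD (0.00936 RPKM, 55.3% of the span overlapped) and UQCR11 (0.161 RPKM, 84.2%) were also low. COX8A at 52.5 RPKM and COX6A1 at 53.1 RPKM were among the 14 as well and were high. How reads under several models were counted is not given in the sources used here, so the levels of these 14 entries are uncertain. Exon length also enters RPKM: UQCRB, a small subunit of complex III, has 9715 bases of annotated exon and a median of 2679.5 reads per library but 9.75 RPKM, while UQCR10 has 975 bases, a median of 2580 reads and 98.0 RPKM.

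Other low entries were isoforms, most of them known from other tissues. Each of the 11 ubiquitous complex IV subunits was tested, at 27.9 to 131 RPKM, and none of the 7 forms grouped as tissue-restricted was. COX4I2, known from lung, and COX8C, known from testis, had no read in any library. With the inferred library sizes, 0 of 218416577 reads allows up to 0.0137 reads in 1e6, by counting error only. The 0 of COX8C is uncertain because its whole span lies under UNC79. COX6A2 and COX7B2, known from muscle and testis, had 1 read each over all 8 libraries, and COX7A1, the heart and muscle form, had 7. COX6B2, known from testis, had 25 reads. NDUFA4L2, placed in this group with no tissue given here, had 26 reads. Their ubiquitous partners COX4I1, COX6A1, COX6B1, COX7A2, COX7B, COX8A and NDUFA4 had means of 27.9 to 131 RPKM. The readthrough entry ATP5J2-PTCD1 had no read either.

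Adding DHT to E2 changed no nuclear respiratory chain gene past the threshold. Among 93 tested entries, 0 passed limma's test at an adjusted p under 0.05, where 21 of all 11375 tested genes did (0.185%); 0 were higher, beside 0.176%, and 0 were lower, beside 0.00879%. At an unadjusted p under 0.05 there were 2 of 93, beside 4.47% of all tested genes. Both were higher in E2+DHT, where 2.87% of all genes were, and 0 were lower, where 1.59% were. The count ran from 0 to 9 over 25 other settings, so no difference from the background is read from it. The second tool, voom on the whole reads recovered from the RPKM values, called 0 of 93, beside 0.237% of all tested genes, and had 1 at an unadjusted p under 0.05, beside 4.43%. The values of the arms did not overlap in 2 of 93 entries, beside 3.4% of all genes. The smallest adjusted p among the members was 0.999 in limma.

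The intervals say how large a change could still be. In 91 of the 93 entries the 95% interval of the fold lay within 1.5-fold either way, beside 96.5% of all tested genes; the exceptions were COX6A1 (0.851 to 1.61) and NDUFA13 (0.874 to 1.60), an accessory subunit of complex I. In 67 of 93 it lay within 1.25-fold, beside 65.8% of all genes. In RNA from whole cultures a change in the share of cells and a change in the RNA of each cell cannot be told apart.

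**Figure D2:**
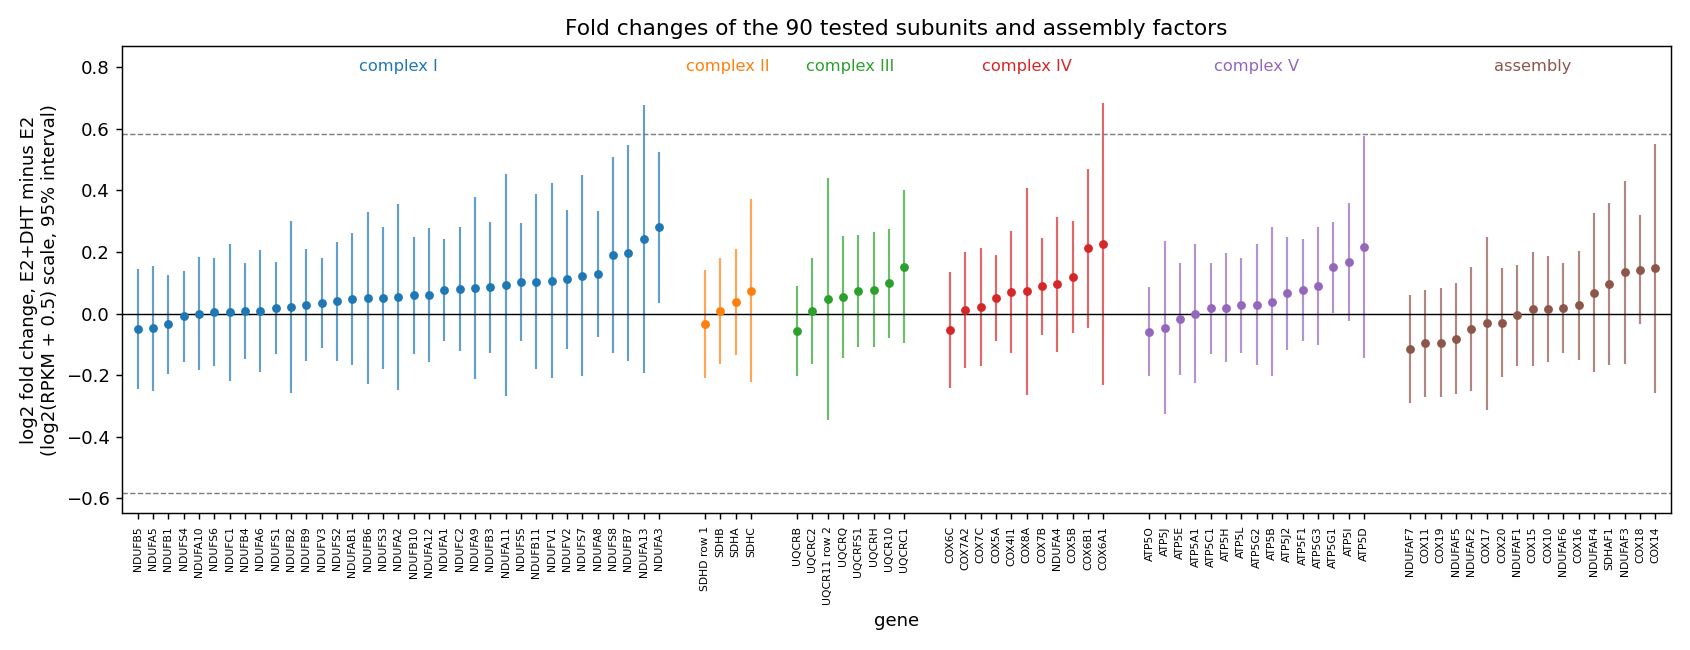
Log2 fold change (E2+DHT minus E2, on the log2(RPKM + 0.5) scale) of 90 tested subunits and assembly factors, sorted within each complex, with 95% intervals as bars and dashed lines at 1.5-fold. The points lie between -0.12 and 0.28, and the intervals of COX6A1 and NDUFA13 pass a dashed line.

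In complex I, which takes electrons from NADH, 30 of 35 tested subunits had a positive log2 fold change as deposited, beside 56.3% of all tested genes. It was 15 of 35 when each library was scaled to the same RPKM sum and 16 of 35 without E2 replicate 2. In these other settings the median over all tested genes turned negative as well, as given below for the whole list. The 56.3% and these shifts apply to the counts of the complexes and lists that follow. In complex I, 0 passed the threshold. NDUFS5, an accessory subunit and the most abundant of the complex, had 109, 117, 116.3 and 109.7 RPKM in E2+DHT and 107, 96.4, 121 and 97.5 RPKM in E2. The E2+DHT values all lay inside the range of E2, and the fold was 1.07 (95% interval 0.939 to 1.23, limma adjusted p = 0.999). All 7 core subunits, which carry the electron path, were on the positive side as deposited, with a median log2 fold change of 0.11, but 4 of 7 at the same RPKM sum and 3 of 7 without E2 replicate 2. NDUFV1, which binds NADH, is one of them and had 58.9, 50.3, 52.8 and 53.7 RPKM in E2+DHT and 59.2, 37.1, 60.7 and 46.7 RPKM in E2. The E2 values spread on both sides of the E2+DHT values, with E2 replicate 2 the lowest of the 8.

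NDUFA3, an accessory subunit in the membrane arm of complex I whose promoter is shown above, had the most positive fold change of all subunits. Its values were 19.6, 15.3, 15.8 and 16.6 RPKM in E2+DHT and 15.4, 12.6, 15.6 and 11.7 RPKM in E2. The arms overlapped, since E2 replicates 1 and 3 stood above E2+DHT replicate 2, and E2+DHT replicate 1 was the highest. The means were 16.8 ± 1.89 RPKM in E2+DHT and 13.8 ± 1.96 RPKM in E2 (SD, n = 4 each), a log2 fold change of 0.28 (SE 0.11) and a fold of 1.21 (95% interval 1.02 to 1.44). The unadjusted p of limma was 0.0291 and the adjusted p 0.999, and its adjusted p ran from 0.0721 to 1.00 over 25 other settings. Its gene lies on hg19 at chr19:54606036-54612564 on the plus strand, with TFPT overlapping it on the opposite strand, and the use of strand in the counting is not given in the sources used here. With the treatments read from the record titles, its log2 fold change was -0.06.

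NDUFB5, an accessory subunit, stood at the other end of complex I. It had 7.92, 8.44, 8.08 and 6.67 RPKM in E2+DHT and 7.47, 7.50, 8.65 and 8.62 RPKM in E2. The arms overlapped, and its log2 fold change was -0.05 (SE 0.087). NDUFA11, the lowest tested subunit of complex I, lies under 2 other coding models and had 2.29, 1.66, 1.92 and 1.99 RPKM in E2+DHT and 2.34, 1.14, 2.25 and 1.69 RPKM in E2. E2 held both its highest and its lowest value.

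**Figure D3:**
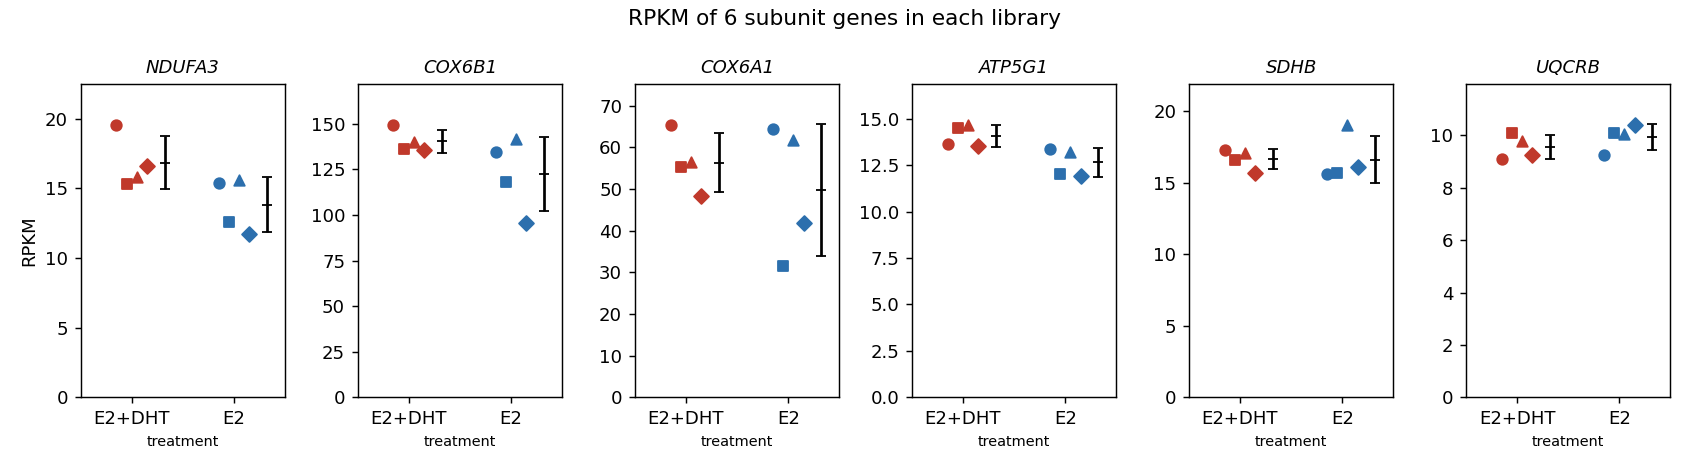
RPKM of 6 subunit genes in each library, E2+DHT in red and E2 in blue, with a marker shape per replicate number (circle 1, square 2, triangle 3, diamond 4) and the mean ± SD of each arm beside the points (n = 4). The arms overlap in 5 of the 6 genes, and only ATP5G1 has all E2+DHT values, 13.5 to 14.7 RPKM, above the E2 values of 11.9 to 13.4 RPKM.

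Complex II, succinate dehydrogenase, had log2 fold changes of -0.03 to 0.07 in its 4 genes as deposited, of which 3 were positive, against 0 of 4 at the same RPKM sum or without E2 replicate 2. SDHA, the flavoprotein that oxidises succinate, had 9.86, 9.20, 9.68 and 9.85 RPKM in E2+DHT and 9.49, 8.26, 10.6 and 9.37 RPKM in E2. SDHB, the iron-sulfur subunit, had 17.3, 16.6, 17.1 and 15.7 RPKM in E2+DHT and 15.6, 15.7, 19.1 and 16.1 RPKM in E2. In both genes the E2+DHT values lay within the range of E2 and E2 replicate 3 was the highest. The folds were 1.03 (95% interval 0.910 to 1.16) for SDHA and 1.01 (0.892 to 1.13) for SDHB. SDHC, a membrane anchor, had 25.8, 24.0, 22.1 and 20.0 RPKM in E2+DHT and 26.6, 17.4, 24.6 and 19.4 RPKM in E2. SDHD, the other anchor, had 4.05, 4.34, 4.19 and 3.79 RPKM in E2+DHT and 4.27, 3.71, 4.71 and 4.14 RPKM in E2 for its main entry. Both anchors had the E2+DHT values inside the E2 range. The second SDHD entry had a mean of 0.00936 RPKM, and the main one lies almost wholly under it.

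Complex III, which passes electrons from ubiquinol to cytochrome c, had 7 of 8 tested subunits on the positive side as deposited, 3 of 8 at the same RPKM sum and 4 of 8 without E2 replicate 2. UQCRC1, a core protein of the complex, was the most positive. It had 31.6, 28.1, 27.6 and 27.7 RPKM in E2+DHT and 30.1, 22.4, 29.5 and 22.2 RPKM in E2. The E2 libraries split into replicates 1 and 3, level with E2+DHT, and replicates 2 and 4 below it; the fold was 1.11 (95% interval 0.936 to 1.32). UQCR10, a small subunit and the most abundant, had 108, 101, 101 and 95.1 RPKM in E2+DHT and 95.8, 88.6, 105 and 88.9 RPKM in E2. UQCRB was the exception to the sign, with 9.09, 10.1, 9.77 and 9.25 RPKM in E2+DHT, 9.23, 10.1, 10.1 and 10.4 RPKM in E2 and a log2 fold change of -0.06. UQCR11 was tested through 1 of its 2 entries, at a mean of 1.97 RPKM and a fold of 1.03 (0.786 to 1.36).

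Complex IV, cytochrome c oxidase, had 10 of 11 tested subunits on the positive side as deposited, 5 of 11 at the same RPKM sum and 7 of 11 without E2 replicate 2. COX6B1, on the side facing the intermembrane space, had 149.6, 136, 140.2 and 136 RPKM in E2+DHT and 135, 118, 141 and 95.8 RPKM in E2. E2 replicate 4 was far below the other libraries, E2 replicate 3 lay among the E2+DHT values, and the arms overlapped. The fold was 1.16 (95% interval 0.968 to 1.39), with a limma unadjusted p of 0.0984 and an adjusted p of 0.999. COX6A1, the form found in most tissues, had 65.5, 55.2, 56.4 and 48.3 RPKM in E2+DHT and 64.3, 31.5, 61.8 and 41.9 RPKM in E2. E2 replicates 1 and 3 were level with the E2+DHT libraries and replicates 2 and 4 below all of them, with an SD of 15.8 RPKM in E2 beside 7.04 RPKM in E2+DHT. Its span lies almost wholly under the model AL021546.6.

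The other ubiquitous forms of complex IV had smaller differences between the arm means. COX4I1 averaged 39.2 ± 0.960 RPKM in E2+DHT and 37.6 ± 4.70 RPKM in E2 (SD, n = 4 each). COX7A2 averaged 45.7 ± 2.52 RPKM in E2+DHT and 45.5 ± 4.66 RPKM in E2. COX8A averaged 53.3 ± 1.16 RPKM in E2+DHT and 51.8 ± 12.04 RPKM in E2. COX7B averaged 28.8 ± 1.19 RPKM in E2+DHT and 27.1 ± 1.99 RPKM in E2. NDUFA4, first assigned to complex I and now counted with complex IV, averaged 53.7 ± 4.84 RPKM in E2+DHT and 50.3 ± 5.70 RPKM in E2. COX6C was the 1 subunit of the complex on the negative side, with 54.3, 57.3, 58.3 and 55.6 RPKM in E2+DHT and 59.4, 49.7, 63.4 and 62.4 RPKM in E2. Its fold was 0.964 (95% interval 0.845 to 1.10).

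Complex V, the ATP synthase, had 11 of 15 subunits on the positive side as deposited, 4 of 15 at the same RPKM sum and 7 of 15 without E2 replicate 2. ATP5A1 had 165, 168, 170.1 and 144 RPKM in E2+DHT and 183, 142, 176 and 149 RPKM in E2, and the means were 162 RPKM in each arm. ATP5D, the delta subunit of the central stalk, was the most positive and had 7.70, 6.50, 6.77 and 8.17 RPKM in E2+DHT and 8.15, 4.79, 7.52 and 4.92 RPKM in E2. E2 replicates 2 and 4 were again the low ones. ATP5O, the subunit that joins the head to the side stalk, was the most negative, at 8.88 ± 0.423 RPKM in E2+DHT and 9.27 ± 0.457 RPKM in E2 (SD, n = 4 each). ATP5J, coupling factor 6 and the lowest of the complex, had 5.34, 7.07, 7.78 and 5.89 RPKM in E2+DHT and 6.24, 6.26, 6.16 and 8.25 RPKM in E2.

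Subunit c, which forms the rotating ring of the ATP synthase, is made from 3 genes with the same mature protein. ATP5G2 was the most abundant at 29.5, 28.1, 27.9 and 26.0 RPKM in E2+DHT and 31.4, 23.9, 28.3 and 26.1 RPKM in E2. ATP5G1 had 13.6, 14.5, 14.7 and 13.5 RPKM in E2+DHT and 13.4, 12.0, 13.2 and 11.9 RPKM in E2. ATP5G1 was the only subunit whose arms did not overlap, with all 4 E2+DHT values above all 4 E2 values. Its means were 14.1 ± 0.596 RPKM in E2+DHT and 12.6 ± 0.769 RPKM in E2 (SD, n = 4 each), a fold of 1.11 (95% interval 1.00 to 1.23), with a limma unadjusted p of 0.0477 and an adjusted p of 0.999. ATP5G3 had 12.9, 14.7, 14.6 and 12.8 RPKM in E2+DHT and 13.9, 11.4, 14.04 and 12.3 RPKM in E2, and its arms overlapped. ATP5G1 and ATP5G3 did not differ in level beyond their spread, at means of 13.4 and 13.3 RPKM over the 8 libraries.

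Among the assembly factors, 9 of 17 were on the positive side as deposited and 4 of 17 at the same RPKM sum, and the median log2 fold change was 0.014, as over all tested genes. COX18, which inserts a mitochondrially encoded subunit of complex IV into the membrane, had 6.27, 5.75, 5.64 and 5.87 RPKM in E2+DHT and 5.41, 4.51, 5.63 and 5.64 RPKM in E2. It was the second entry without overlap between the arms, by a small margin, and its fold was 1.10 (95% interval 0.976 to 1.25, limma adjusted p = 0.999). COX14, an assembly factor of the same complex, had a log2 fold change of 0.15 with a wide spread, 4.42 ± 0.922 RPKM in E2+DHT and 3.98 ± 1.14 RPKM in E2 (SD, n = 4 each). COX11, which delivers copper to the catalytic core, had 8.66, 9.39, 9.25 and 7.81 RPKM in E2+DHT and 8.59, 9.24, 9.84 and 9.97 RPKM in E2. NDUFAF7, a methyltransferase that acts on a core subunit of complex I, had 3.51, 3.41, 3.67 and 3.02 RPKM in E2+DHT and 3.30, 3.82, 3.88 and 3.92 RPKM in E2. COX11 and NDUFAF7 were the most negative of the assembly factors, at log2 fold changes of -0.10 and -0.12, and both overlapped between the arms. COX7A2L, a factor of respiratory supercomplexes, averaged 9.70 ± 0.942 RPKM in E2+DHT and 9.32 ± 0.949 RPKM in E2.

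As a list, 61 of 73 tested subunits had a positive log2 fold change, beside 56.3% of all tested genes, with a median of 0.054 against 0.014 over all genes. The sign of this list rested on the scaling and on 1 library. When each library was scaled to the same RPKM sum, 27 of 73 were positive with a median of -0.021, against -0.053 over all genes, and without E2 replicate 2 it was 34 of 73 with a median of -0.0079, against -0.022 over all genes. With each library centred on the median of all tested genes, 51 of 73 were positive and the median was 0.034, against -0.0057 over all genes; with quantile normalization it was 47 of 73 and 0.019. The subunits' median was above that of all genes in each of these settings, with no test of the difference.

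**Figure D4:**
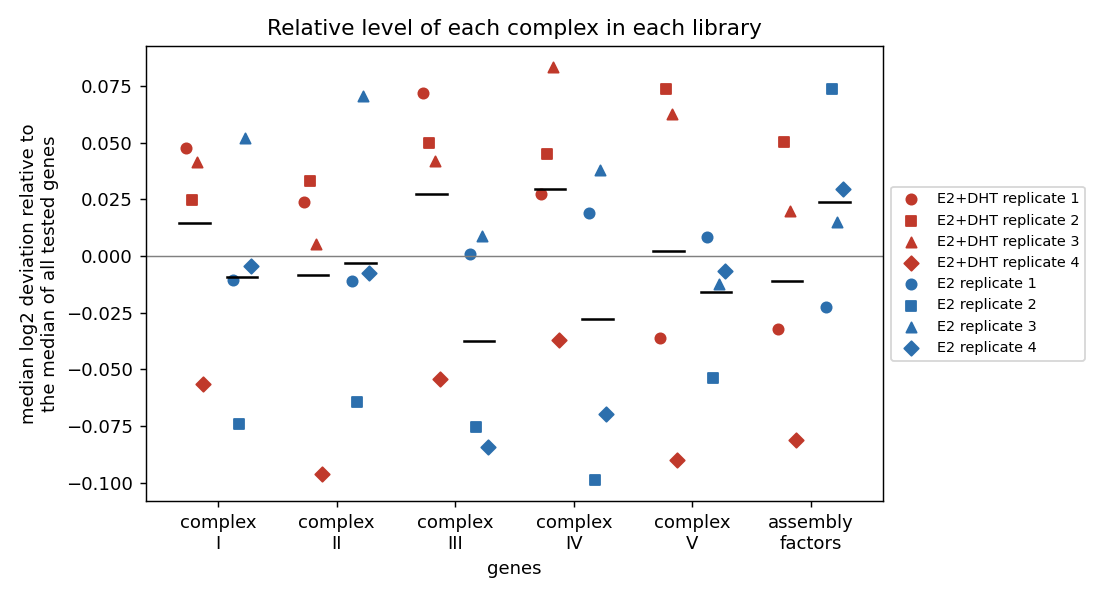
Median log2 deviation of the tested genes of each complex from their mean over the libraries, minus the same median over all 11375 tested genes, in each library, E2+DHT in red and E2 in blue, with the mean of each arm as a bar. E2+DHT replicate 4 is the lowest E2+DHT library in all 6 classes, and the arms overlap in every class.

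Library by library, the subunits of the different complexes mostly deviated the same way. Relative to all tested genes, the median subunit stood at 0.020, 0.047, 0.049 and -0.057 on the log2 scale in E2+DHT and at 0.0085, -0.070, 0.037 and -0.032 in E2. E2+DHT replicate 4 and E2 replicates 2 and 4 were low, and the arms overlapped. As deposited, 65.8% of the 73 tested subunits had their lowest RPKM in E2 replicate 2, beside 40.9% of all tested genes, and 34.2% their highest in E2 replicate 3, beside 27.8%. The SD of RPKM was larger in E2 than in E2+DHT in 86.3% of the subunits, beside 75.6% of all tested genes. The 17 assembly factors stood at -0.032, 0.050, 0.020 and -0.081 in E2+DHT and -0.023, 0.074, 0.015 and 0.030 in E2, so that E2 replicate 2 was high here relative to all genes.

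Within the subunits, the fold change moved with the base composition of the transcript. Across the 73 tested subunits the Pearson correlation between log2 fold change and the GC content of the longest coding transcript was 0.62, beside 0.44 over 10426 tested genes with a GC value; genes share libraries and are not independent replicates. All 16 subunits with at least 55% GC were positive as deposited (12 at the same RPKM sum, 9 without E2 replicate 2), with a median log2 fold change of 0.14, where 86.2% of all tested genes of that GC were positive with a median of 0.086. Below 45% GC, 16 of 23 subunits were positive as deposited (6 at the same RPKM sum, 9 without E2 replicate 2), with a median of 0.021, where 31.1% of such genes were positive with a median of -0.032. Single libraries of both arms showed it in either direction: the correlation of the deviation with GC was 0.58, -0.51, -0.10 and 0.66 in E2+DHT and 0.45, -0.61, 0.25 and -0.53 in E2. E2 replicates 2 and 4, the libraries with the lowest shares of reads in exons, were low at high GC. E2+DHT replicate 2 was low at high GC too, with 84.5% of its reads in exons. The part of these shares in the result was not tested.

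**Figure D5:**
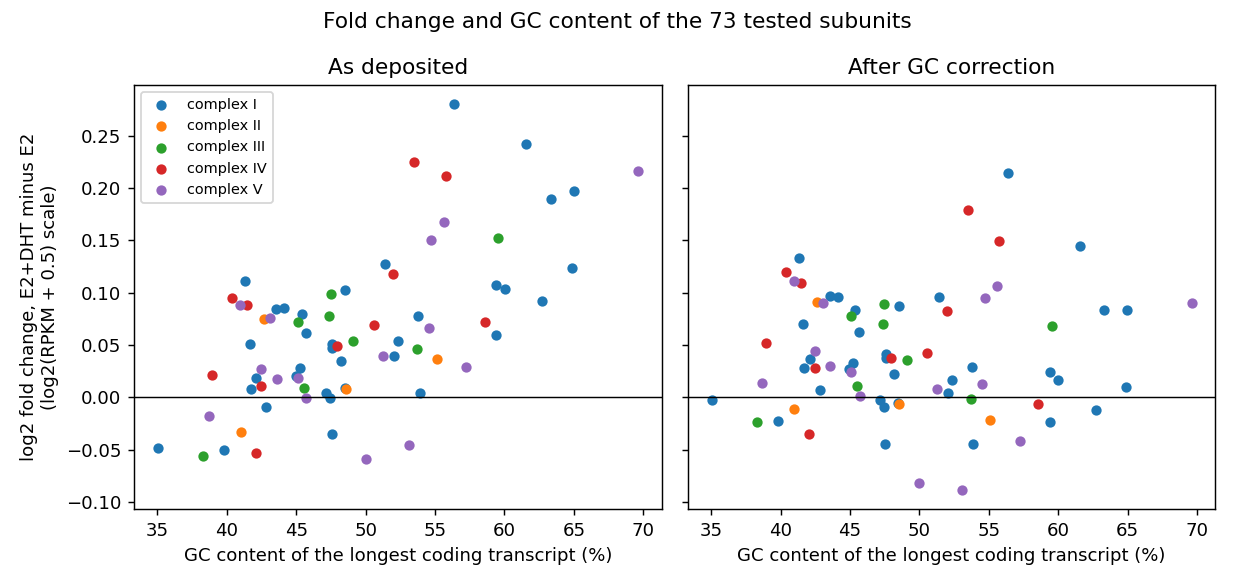
Log2 fold change (E2+DHT minus E2) of the 73 tested subunits against the GC content of the longest coding transcript, as deposited on the left and after GC correction on the right, colored by complex. The rise to the right on the left panel (r = 0.62) is nearly absent on the right panel (r = 0.057).

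After the relation with GC was removed from each library, a step chosen after the data had been seen, 54 of 73 subunits were positive with a median of 0.030, against -0.0051 over all genes, and 0 of 93 entries passed the threshold in limma, with 3 at an unadjusted p under 0.05. Of the 16 subunits with at least 55% GC, 11 remained positive, with a median of 0.046, beside 48.8% of all tested genes of that GC. At 45 to 55% GC, 25 of 34 subunits were positive, beside 46.9% of such genes. Below 45% GC, 18 of 23 were positive, beside 44.9%. The subunits' share was above that of all genes in each GC class, with no test of the difference. NDUFA3 had a log2 fold change of 0.21 after the step, with an unadjusted limma p of 0.00653 and an adjusted p of 0.292. The spread over all 8 libraries followed GC too, with a median log2 range of 0.707 for subunits of at least 55% GC and 0.308 for those under 45%. Of the 10 subunits with the widest range, 7 are on chromosome 19, which holds 9 tested subunits. All 10 have at least 53.5% GC, so chromosome and GC content are not told apart here.

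The wider pathway held no call either. None of 9 further complex I assembly factors, 18 further complex IV assembly factors, 5 further ATP synthase genes, 5 electron carriers, 13 genes of coenzyme Q synthesis, 18 regulators of mitochondrial biogenesis or 19 genes of the citrate cycle passed limma's test in either direction, and the positive counts as deposited were 5 of 9, 10 of 18, 4 of 5, 3 of 5, 7 of 13, 7 of 18 and 14 of 19, against 2 of 9, 3 of 18, 0 of 5, 2 of 5, 2 of 13, 4 of 18 and 8 of 19 at the same RPKM sum. Of these lists only the regulators had a gene at an unadjusted p under 0.05, and voom had 1 as well. Over all tested genes 56.3% were positive as deposited. Among 6 further complex III genes 0 passed, with 1 on each side at an unadjusted p under 0.05. Of all tested genes, 2.87% were higher and 1.59% lower at that level in limma. UQCC2, an assembly factor of complex III, had 10.2, 10.7, 11.8 and 10.8 RPKM in E2+DHT and 9.00, 8.69, 10.7 and 9.36 RPKM in E2 (limma unadjusted p = 0.0282, adjusted p = 0.999). LYRM7, which matures the iron-sulfur protein of that complex, had 2.16, 2.21, 2.04 and 1.96 RPKM in E2+DHT and 2.33, 2.25, 2.70 and 2.43 RPKM in E2 (limma unadjusted p = 0.0347, adjusted p = 0.999). The 2 differ in sign, and LYRM7 was lower in every E2+DHT library than in any E2 library. The arms did not overlap in 3.4% of all tested genes.

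In the further pathway lists with no gene at an unadjusted p under 0.05, the gene with the smallest p had a limma adjusted p = 0.999 in each case. TMEM126B, an assembly factor of complex I, averaged 6.63 ± 0.382 RPKM in E2+DHT and 7.18 ± 0.609 RPKM in E2 (SD, n = 4 each, here and in the next sentences). PET117, an assembly factor of complex IV, averaged 1.36 ± 0.306 RPKM in E2+DHT and 1.03 ± 0.236 RPKM in E2, with the lowest unadjusted limma p of the group, 0.0697. ATPAF1, which helps to assemble the head of the ATP synthase, averaged 6.76 ± 0.199 RPKM in E2+DHT and 6.62 ± 0.360 RPKM in E2. The arms overlapped in all 3 of these assembly factors. ETFB, a subunit of the electron transfer flavoprotein, averaged 3.47 ± 0.158 RPKM in E2+DHT and 3.19 ± 0.828 RPKM in E2. COQ9, a protein of coenzyme Q synthesis, averaged 6.997 ± 0.523 RPKM in E2+DHT and 6.41 ± 0.488 RPKM in E2. PDHX, a component of the pyruvate dehydrogenase complex, averaged 15.6 ± 0.576 RPKM in E2+DHT and 14.5 ± 1.11 RPKM in E2. All 3 metabolic genes overlapped between the arms. MT-RNR1, the small ribosomal RNA of mitochondria, averaged 25460 ± 2385 RPKM in E2+DHT and 22950 ± 1581 RPKM in E2, and its arms overlapped.

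Of the regulators, PPARGC1B, a coactivator of mitochondrial genes, had 0.616, 0.586, 0.599 and 0.644 RPKM in E2+DHT and 0.447, 0.457, 0.568 and 0.466 RPKM in E2. The arms did not overlap, as in 3.4% of all tested genes (limma unadjusted p = 0.0303, adjusted p = 0.999). Its mean over the 8 libraries, 0.548 RPKM, was just above the filter of 0.5 RPKM. Its mean in E2, 0.484 RPKM, was below that level, so the gene entered the test through its E2+DHT values. NRF1, whose motif is shown above, averaged 2.00 ± 0.0442 RPKM in E2+DHT and 1.87 ± 0.265 RPKM in E2, and GABPA, the DNA-binding part of GABP, 3.30 ± 0.217 RPKM in E2+DHT and 3.39 ± 0.585 RPKM in E2 (SD, n = 4 each). CYC1, the cytochrome c1 subunit of complex III, which the name rule does not reach, averaged 36.9 ± 1.37 RPKM in E2+DHT and 35.3 ± 7.97 RPKM in E2. CS, citrate synthase, averaged 15.8 ± 0.744 RPKM in E2+DHT and 15.6 ± 0.971 RPKM in E2.

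The 13 subunits encoded in mitochondrial DNA did not follow the nuclear ones from library to library. Relative to all tested genes their median stood at -0.15, 0.033, -0.10 and 0.39 on the log2 scale in E2+DHT and at -0.40, 0.56, -0.41 and 0.080 in E2. E2 replicate 2, the low library of the nuclear subunits, was the highest for the mitochondrial ones, and E2 replicates 1 and 3 were the lowest. All 13 had a positive log2 fold change as deposited, with a median of 0.090, 7 of 13 at the same RPKM sum, and 13 of 13 with a median of 0.247 without E2 replicate 2; 0 passed limma's test, 0 had an unadjusted p under 0.05 in limma or in voom, and 0 had an interval within 1.25-fold. MT-CO1, the catalytic subunit of complex IV, had 1772, 2087, 2027 and 2139 RPKM in E2+DHT and 1666, 2279, 1667 and 1906 RPKM in E2.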

How the data were processed

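The libraries came from a kit for stranded total RNA and paired-end sequencing, per the labels' protocols. The authors deposited RPKM values in 1 table for 8 libraries; per the submitters' processing notes the build is hg19, and the sources used here do not give aligner, counter, annotation or strand use. Whole reads were recovered for all 27594 expressed genes (tolerance 0.0001 reads, shortest exon length that fits), so reads of low genes may be too low. Values were compared as log2(RPKM + 0.5), which understates changes of low genes, for genes with a mean of at least 0.5 RPKM. The test was limma 3.58.1 (R 4.3.3) with an intensity trend, two-sided, Benjamini-Hochberg over 11375 genes, threshold 0.05, checked on simulated data. There it recovered 24% of 1.25-fold and 88% of 1.5-fold changes, with 6 false calls in the whole simulation. Changes of about 1.25-fold would therefore mostly be missed. The simulation changed 200 genes at once, by 1.25-fold to 3-fold, and drew each gene's noise independently. It held no shifts shared by a library or by GC content, so the shares recovered may be too high for these data. Depth was inferred from the values and is given with the results. GC content came from GENCODE 29 by Ensembl identifier and was corrected by loess (span 0.3) per library. Promoters are from RefSeq, GRCh38.p14. Python 3.11.15 made the tables (NumPy 2.4.6, pandas 2.3.3, SciPy 1.17.1) and plots (matplotlib 3.10.9).

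Members, lists, tests and alternatives were chosen with earlier results of these data known. The genes named are those past the threshold; per complex the highest, lowest, most positive and most negative subunit; the 2 most positive and 2 most negative assembly factors; isoform sets; SDH genes; entries without a read; and the smallest p per further list. ATP5B, NDUFV1, NDUFA13, NRF1, GABPA, CYC1, CS, LYRM7 and genes named for overlap or length were added after their values were seen. COX6A1P2 and ATP5EP2 were left out as pseudogene names. Alternatives covered pseudocount, filter, trend, scaling, weights, replicate block, treatment labels, single libraries and, added after seeing the data, voom and GC correction.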

Additional observations from a re-analysis of the deposited data

Results flagged for a closer look

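In 88 sets of 4 libraries checked, 6 values stood far from the other 3 of their arm by Dixon's 95% criterion, where chance gives about 1 in 20. ATP5J had 8.25 RPKM in E2 replicate 4, against 6.16 to 6.26 RPKM in the other E2 libraries. NDUFA4 had 46.4 RPKM in E2+DHT replicate 4, against 56.0 to 56.3 RPKM in the other E2+DHT libraries. NDUFAF7 had 3.30 RPKM in E2 replicate 1, against 3.82 to 3.92 RPKM. SDHB had 19.1 RPKM in E2 replicate 3, against 15.6 to 16.1 RPKM. UQCRC1 had 31.6 RPKM in E2+DHT replicate 1, against 27.6 to 28.1 RPKM. The median subunit, before any centring, stood at -0.059 on the log2 scale in E2+DHT replicate 4, against 0.044 to 0.062 in the other E2+DHT libraries.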

How the results depend on the processing

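None of the members passed the threshold in limma in any of 25 other settings (voom on recovered reads among them). The count of members at an unadjusted p under 0.05 ran from 0 to 9, and the lowest adjusted p was 0.0721, for NDUFA3 with GC correction and the replicate block. Over all tested genes the count of 21 became 5 without a filter, 12 at the same RPKM sum over non-mitochondrial genes, 33 with median centring, 47 with array weights, 2 with groups from the record titles, 87 with GC correction and 0 in limma when only the 4 records without conflicting labels entered (286 genes at an unadjusted p under 0.05). Leaving out 1 library gave 6 to 18 calls. At the same RPKM sum the calls were 18 higher and 4 lower, against 20 and 1. Because equal replicate numbers need not mark pairs, the replicate block was an alternative: it gave 72 calls (62 higher, 10 lower), 131 with median centring and 234 with GC correction, and 0 members in each. Libraries of equal number deviated together with r = 0.70, 0.45, 0.12 and 0.083 for replicates 1 to 4. E2+DHT replicates 1, 2 and 4 each correlated best with the E2 library of their own number. However, E2+DHT replicate 3 correlated best with E2 replicate 4 (r = 0.22), and E2 replicate 4 with E2+DHT replicate 2 (r = 0.33). The pairing is therefore not established. The assembly factor median log2 fold change was -0.054 at the same RPKM sum and -0.052 at the same sum without mitochondrial genes, against 0.014; leaving out 1 library gave -0.026 to 0.043. The subunit median ran from -0.0079 to 0.107 with 1 library left out. Of 773 pairs of a named gene and a setting, 83 had the other sign. The causes of these shifts were not tested. Low entries had few reads: COX14 had 66 to 201 per library and UQCR11 54 to 150.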

Other observations

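Pseudogenes that carry names of this family were mostly silent: 4 of 141 reached a mean of 0.5 RPKM. They were NDUFV2P1 at 2.66 RPKM, SDHAP1 at 1.24 RPKM, SDHAP3 at 0.713 RPKM and ATP5F1P5 at 0.685 RPKM. Their sum was 5.00 to 7.005 RPKM per library, against 2344 to 2906 RPKM for the nuclear respiratory chain genes. TNNT1, a slow muscle troponin, was the 1 of 6 muscle markers above the filter and had 24.5, 22.7, 24.9 and 26.0 RPKM in E2+DHT and 23.3, 20.2, 27.8 and 22.6 RPKM in E2. COL1A1 was the 1 of 7 fibroblast markers above the filter, at 0.759, 0.738, 0.874 and 1.06 RPKM in E2+DHT and 0.842, 0.680, 0.760 and 0.681 RPKM in E2.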
